A study of Mus musculus with 6 samples.

Results

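The mitochondrial pyruvate carrier and the pyruvate dehydrogenase complex were followed in quadriceps muscle through 10 genes taken by name from the 22036 genes of the deposited table: the carrier genes Mpc1 and Mpc2, the complex genes Pdha1, Pdhb, Dlat and Dld, the kinase genes Pdk1, Pdk2 and Pdk4, and the phosphatase gene Pdp1. Each symbol matched 1 row, and all 10 passed the filter on low counts. The libraries were nanopore cDNA libraries of total RNA, 3 from Prr14-KO mice (KO) and 3 from Prr14-WT mice (WT). PRR14 tethers heterochromatin to the nuclear lamina. The sources used here do not give the knockout allele, strain, age or sex, nor whether each library is 1 animal, so a p-value speaks only of how these libraries vary, which may be technical.

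Pyruvate made by glycolysis crosses the inner mitochondrial membrane through a carrier built from MPC1 and MPC2. In the matrix the pyruvate dehydrogenase complex turns it into acetyl-CoA for the tricarboxylic acid cycle: E1 (PDHA1 and PDHB) removes carbon dioxide, E2 (DLAT) passes the acetyl group to coenzyme A on a lipoyl arm, and E3 (DLD) reoxidises that arm. Pyruvate dehydrogenase kinases phosphorylate E1 and switch the complex off, and the phosphatases PDP1 and PDP2 remove the phosphate and switch it on. In muscle PDP1 is the calcium-stimulated phosphatase that acts during contraction, and PDK4 is the kinase known for its rise in fasting.

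The libraries held 1436099 to 1712975 counts each. Levels are given as CPM, the count scaled to a common library size, on the TMM scale, which equalises the libraries by the bulk of their genes. The TMM scaling factors were 1.055 to 1.108 in KO and 0.862 to 0.9695 in WT. They did not overlap, so the choice of scaling bears on the comparison of genotypes. Prr14 itself was read 4, 10 and 3 times in KO replicates 1 to 3 and 9, 11 and 12 times in WT replicates 1 to 3. These were 1.72 to 6.25 CPM in KO and 6.57 to 8.22 CPM in WT, with no overlap but a narrow gap. The difference did not pass (log2 fold change -1.10, edgeR adjusted p = 0.196). Whether the KO reads lie in the deleted part is not known here. The exons of Prr14 share 49 bases with B130055M24Rik on the same strand. The tissue label fitted the fibre markers: the 11 fast-fibre genes summed to 123784 to 141442 CPM in KO and 179600 to 228151 CPM in WT, with no overlap. The 11 slow-fibre genes summed to 392.2, 1580 and 156 CPM in KO replicates 1 to 3 and 506, 410 and 91.7 CPM in WT replicates 1 to 3, so the sum varied between libraries of 1 genotype. Of the 10 tested, Casq2 passed as higher in KO, at 31.5 to 51.8 CPM against 13.9 to 17.0 CPM in WT (edgeR adjusted p = 0.0024). The other 9 did not pass, and 8 of the 10 log2 fold changes were positive. The 13 mitochondrially encoded genes summed to 43940 to 53488 CPM in KO and 60988 to 68552 CPM in WT, with no overlap, but by library totals to 47928 to 57525 CPM in KO and 54686 to 63381 CPM in WT, which overlap. Macrophage genes (7) summed to 186 to 200 CPM in KO and 151 to 490 CPM in WT, and red blood cell genes (5) to 1401 to 2016 CPM in KO and 1623 to 4002 CPM in WT. Endothelial genes (7) summed to 218 to 269 CPM in KO and 228 to 262 CPM in WT, and fibroblast genes (7) to 1348 to 2134 CPM in KO and 1351 to 2173 CPM in WT. Satellite cell genes (5) summed to 12.5 to 16.6 CPM in KO and 12.3 to 26.3 CPM in WT, and Schwann cell genes (5) to 55.7 to 78.7 CPM in KO and 51.3 to 112 CPM in WT. The 8 adipocyte genes summed to 2092 to 2584 CPM in KO and 4016 to 6805 CPM in WT, and without Car3, which fibres also express, to 535 to 773 CPM in KO and 229 to 938 CPM in WT. No gene of these lists was at 0 in all 6 libraries.

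The phosphatase gene Pdp1 fell to 0.492 of its WT level in KO muscle, while the carrier, the 4 complex genes and the 3 kinase genes did not pass the test. Of the 10 genes 1 fell, 0 rose and 9 did not pass (edgeR quasi-likelihood test, with a call at an adjusted p under 0.05 by Benjamini-Hochberg over all genes tested), where 6.26% of the 6680 genes tested passed in either direction and 3.28% passed as lower. On the TMM scale the libraries of KO and WT did not overlap for 3 of the 10 (Mpc2, Pdha1 and Pdp1, all lower in KO), against 25.8% of all genes tested in either direction and 12.2% of all genes tested as lower. By library totals, a count added after seeing the data, Mpc2 and Pdha1 overlapped, Pdp1 did not and was lower in KO, and Pdhb and Pdk2 did not and were higher in KO, where 33.4% of all genes tested did not overlap, 28.2% as higher and 5.21% as lower. The log2 fold change was negative for 8 of the 10, against 48% of all genes tested, and its median was -0.13 against 0.017. With library totals in place of TMM it was negative for 3 of the 10 and its median was 0.10, on a scale where the median of all genes tested moved to 0.25.

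**Figure D1:**
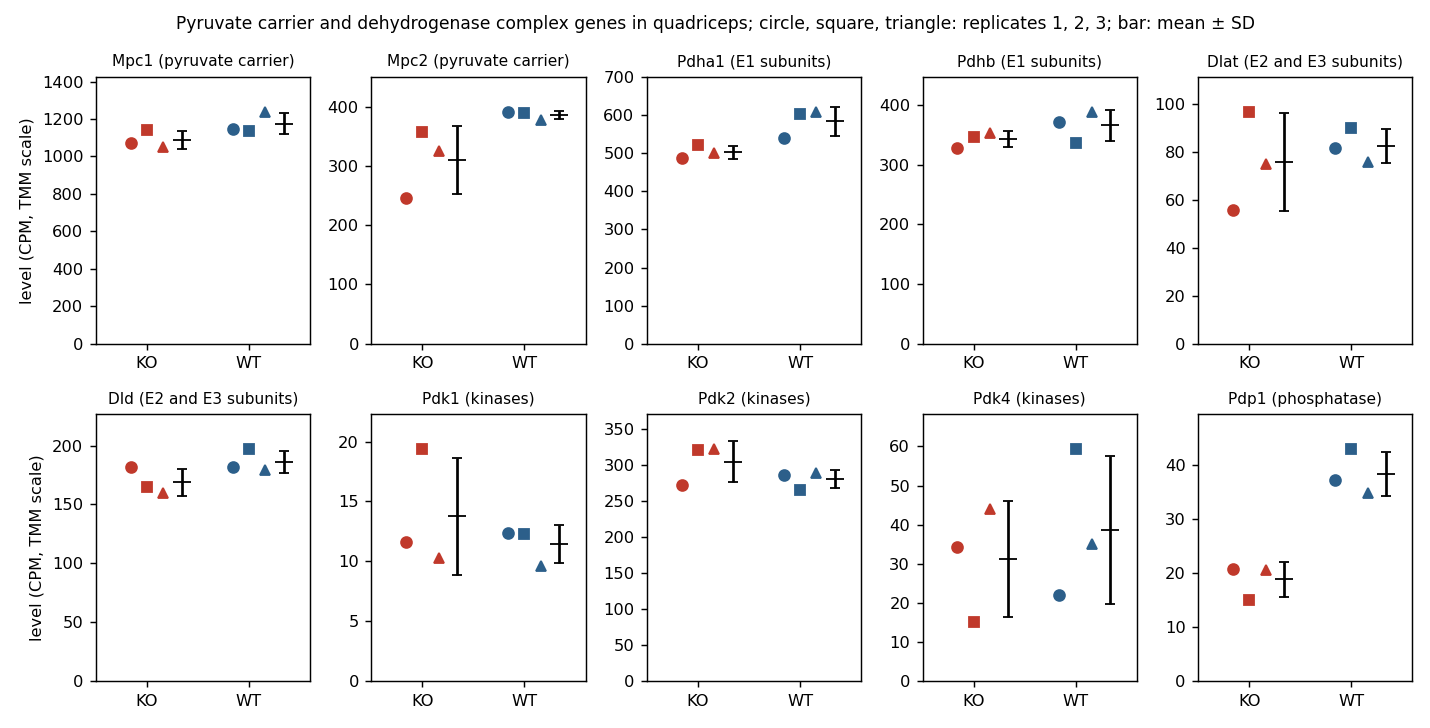
Level of each of the 10 genes in CPM on the TMM scale, by genotype. Points are libraries and the black bar is the mean ± SD of 3. The 3 KO libraries of Pdp1 lie at 14.99 to 20.8 CPM, below the 34.9 to 42.9 CPM of WT, and Pdk4 spreads from 14.99 to 59.3 CPM with overlap.

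Both carrier genes were read in every library, Mpc1 with 1571 to 1830 counts and Mpc2 with 402 to 572. Mpc1 (ENSMUSG00000023861, GRCm38 chromosome 17, 8282904 to 8297661, plus strand, protein coding), whose product pairs with MPC2 to form the carrier, had 1073, 1140.5 and 1048 CPM in KO replicates 1 to 3 and 1146, 1137 and 1238 CPM in WT replicates 1 to 3. KO replicate 2 reached the lowest WT values, so the groups overlapped. Its fitted log2 fold change was -0.11 with a 95% interval of -0.31 to 0.09 (edgeR adjusted p = 0.571), and it was 0.13 with library totals. Its merged exons share 480 bases with 4930506C21Rik on the opposite strand.

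Mpc2 (ENSMUSG00000026568, chromosome 1, 165460637 to 165481214, plus strand) had 246, 357 and 325 CPM in KO and 391, 388 and 378 CPM in WT. The WT libraries lay close together, and KO replicate 1 was the lowest library. The mean was 309 ± 57.2 CPM in KO and 386 ± 6.98 CPM in WT (SD, n = 3 each). The log2 fold change was -0.32 (SE 0.13, 95% interval -0.60 to -0.04), and it did not pass (edgeR adjusted p = 0.188). With library totals it was -0.087 (edgeR adjusted p = 0.711), and the groups overlapped. Without KO replicate 1 it was -0.18 (edgeR adjusted p = 0.402), and without KO replicate 2 it was -0.43 (0.0891). Within a library, the ratio of Mpc1 to Mpc2 counts was 4.36, 3.19 and 3.23 in KO replicates 1 to 3 and 2.93, 2.93 and 3.28 in WT replicates 1 to 3. KO replicate 1 stood above the rest in this ratio, and the other KO libraries lay within or near the WT range.

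Of the E1 genes, Pdha1 (ENSMUSG00000031299, chromosome X, 160122209 to 160138413, minus strand) encodes the alpha subunit that the kinases phosphorylate. It had 487, 522 and 500 CPM in KO and 541, 604 and 609 CPM in WT, with no overlap and a narrow gap on this scale. The mean was 503 ± 17.7 CPM in KO and 585 ± 37.7 CPM in WT (SD, n = 3 each). For Pdha1 the log2 fold change was -0.22 (95% interval -0.43 to -0.0041), it did not pass (edgeR adjusted p = 0.242), and it was 0.020 with library totals. Its exons share 603 bases with Map3k15 on the opposite strand, a gene listed with 0 counts in all 6 libraries, and its testis paralog Pdha2 had 0 counts.

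Pdhb (ENSMUSG00000021748, chromosome 14, 8165996 to 8173025, minus strand), the E1 beta subunit gene, had 328, 346 and 354 CPM in KO and 372, 337 and 389 CPM in WT. WT replicate 2 fell inside the KO range. Its log2 fold change was -0.10 (95% interval -0.32 to 0.13, edgeR adjusted p = 0.690), or 0.14 with library totals. Pdha1 had 1.49, 1.51 and 1.41 counts for each Pdhb count in KO replicates 1 to 3, and 1.45, 1.79 and 1.57 in WT replicates 1 to 3, so the subunit ratio overlapped between genotypes.

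Dlat (ENSMUSG00000000168, chromosome 9, 50634633 to 50659780, minus strand), the E2 core gene, had 55.7, 96.8 and 75.0 CPM in KO and 81.7, 90.0 and 76.0 CPM in WT. KO held both the lowest and the highest library. For Dlat the log2 fold change was -0.12 (95% interval -0.53 to 0.28, edgeR adjusted p = 0.782), and it was 0.057 without KO replicate 1 and 0.11 with library totals. Dld (ENSMUSG00000020664, chromosome 12, 31331277 to 31351453, minus strand), the E3 gene whose product also serves the 2-oxoglutarate and branched-chain complexes, had 182, 165 and 160 CPM in KO and 182, 197 and 179 CPM in WT. KO replicate 1 lay inside the WT range, and the other KO libraries were below all of WT. Its log2 fold change was -0.14 (95% interval -0.41 to 0.13, edgeR adjusted p = 0.595), or 0.095 with library totals. For Mpc1, Pdhb and Dld the 95% intervals together ran from 0.755 to 1.10 of the WT level on the TMM scale.

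**Figure D2:**
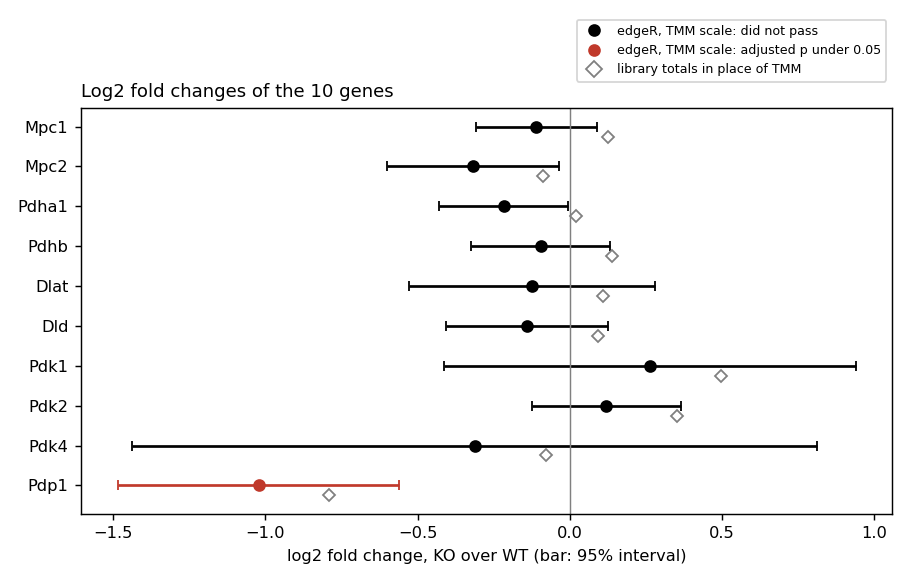
Log2 fold change of KO over WT for the 10 genes, with 95% intervals (filled circles, edgeR on the TMM scale) and the values with library totals in place of TMM (open diamonds). Pdp1, at -1.02, is the gene that passed. The open diamonds lie to the right of the circles, and 7 of the 10 are above 0.

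Pdk2 supplied most of the kinase reads. Pdk2 (ENSMUSG00000038967, chromosome 11, 95026258 to 95041354, minus strand), the kinase found in most tissues, had 272, 320 and 322 CPM in KO and 286, 266 and 289 CPM in WT. KO replicates 2 and 3 were above all WT libraries and KO replicate 1 lay inside their range. For Pdk2 the log2 fold change was 0.12 (SE 0.11, 95% interval -0.13 to 0.37) and did not pass (edgeR adjusted p = 0.623). With library totals it was 0.35 (edgeR adjusted p = 0.0596).

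Pdk4 (ENSMUSG00000019577, chromosome 6, 5483351 to 5496309, minus strand) had 34.3, 14.99 and 44.1 CPM in KO and 21.9, 59.3 and 34.9 CPM in WT, a 3.96-fold range in which both genotypes spread widely. KO replicate 2 was the lowest library and WT replicate 2 the highest. Its SD within genotype was 0.73 on the log2 CPM scale, and 97.9% of the genes tested had a smaller one. The log2 fold change was -0.31 with an interval of -1.44 to 0.81 (edgeR adjusted p = 0.786), it was 0.014 without KO replicate 2 and 0.10 without WT replicate 2, and no direction can be given. The SDs of Mpc1, Pdha1, Pdhb, Dld and Pdk2 were 0.065, 0.076, 0.084, 0.085 and 0.11, and 1.86 to 7.84% of the genes tested had a smaller one. Those of Mpc2, Pdp1, Dlat and Pdk1 were 0.20, 0.21, 0.29 and 0.34.

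Pdk1 (ENSMUSG00000006494, chromosome 2, 71873224 to 71903858, plus strand), a kinase gene known as a target of hypoxia signalling, had 19, 31 and 18 counts in KO and 17, 18 and 14 counts in WT. These were 11.6, 19.4 and 10.3 CPM in KO and 12.4, 12.3 and 9.58 CPM in WT, with KO replicate 2 standing above the other 5 libraries. For Pdk1 the log2 fold change was 0.26 (95% interval -0.41 to 0.94, edgeR adjusted p = 0.714), and -0.058 without KO replicate 2. Pdk3, the remaining kinase gene, was too low to be tested, with 2, 2 and 1 counts in KO and 5, 3 and 2 counts in WT.

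The make-up of the kinase reads does not depend on how libraries are scaled. Pdk2 took 85.2%, 90.0% and 85.4% of the Pdk1 to Pdk4 counts in KO replicates 1 to 3, and 88.3%, 78.3% and 86.3% in WT replicates 1 to 3. Pdk4 took 10.7% (exact binomial 95% interval 8.22 to 13.7%), 4.21% (2.72 to 6.20%) and 11.7% (9.35 to 14.4%) in KO, and 6.76% (4.60 to 9.51%), 17.5% (14.2 to 21.1%) and 10.4% (7.86 to 13.5%) in WT. In each genotype the interval of replicate 2 lay apart from those of replicates 1 and 3, which overlapped each other. The genotypes overlapped. Pdk1 took 2.74 to 5.44% in KO and 2.86 to 3.83% in WT.

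**Figure D3:**
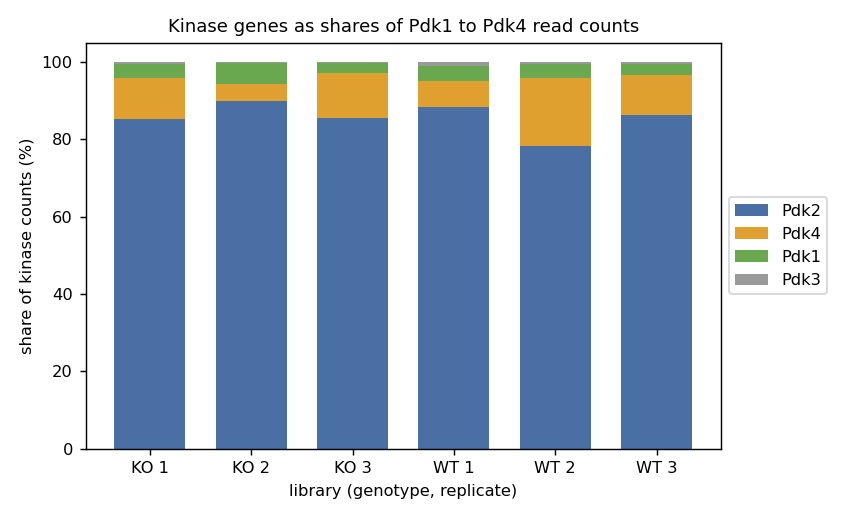
Shares of Pdk2, Pdk4, Pdk1 and Pdk3 in the kinase read counts of each library, in percent. Pdk2 makes up 78.3 to 90.0% of each bar, and the Pdk4 share runs from 4.21 to 17.5% with no order by genotype.

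Start-site sequences were set beside these levels to show how the most variable gene and a steady one begin. RefSeq on GRCm38 gave 12 start windows for 9 of the 10 genes, from 250 bases before to 50 bases after the start, Pdp1 excepted. The windows of Pdk4, at chr6:5496229-5496528 on the minus strand, and of Pdha1, at chrX:160138381-160138680 on the minus strand, are printed 5′ to 3′ with each CG pair in capitals.

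Pdk4: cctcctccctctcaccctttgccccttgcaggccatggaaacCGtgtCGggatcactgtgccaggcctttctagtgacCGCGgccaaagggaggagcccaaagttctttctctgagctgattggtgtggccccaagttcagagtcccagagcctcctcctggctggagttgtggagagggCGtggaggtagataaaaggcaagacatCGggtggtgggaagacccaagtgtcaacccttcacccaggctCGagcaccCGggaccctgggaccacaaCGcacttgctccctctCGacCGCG

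Pdha1: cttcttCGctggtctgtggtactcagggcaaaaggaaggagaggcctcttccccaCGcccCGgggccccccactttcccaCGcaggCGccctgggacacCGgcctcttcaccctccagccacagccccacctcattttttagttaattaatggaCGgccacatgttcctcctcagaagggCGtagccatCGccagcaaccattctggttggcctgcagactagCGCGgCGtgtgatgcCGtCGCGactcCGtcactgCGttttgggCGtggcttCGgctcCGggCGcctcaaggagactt

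Pdk4 held 12 CG pairs and Pdha1 held 21, at a GC content of 60.7% and 62.0%. The 32851 windows of the table had a median of 7 pairs and 52.7% GC. Among the 12 windows of the genes, the first Mpc1 start held the most pairs (39) and the second Pdk1 start the fewest (2). None of the 12 held the MEF2 consensus, the letters AAGGTCA of the oestrogen-related receptor half-site, the FoxO letters GTAAACA or the NRF1 core letters GCGCATG on either strand. These were found in 3.19%, 4.72%, 3.65% and 3.91% of all windows. At such low shares 12 windows are too few for an absence to be read as a result.

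Pdp1 (ENSMUSG00000049225, chromosome 4, 11958184 to 11966452, minus strand, protein coding) encodes the catalytic subunit of the phosphatase that reactivates E1. It had 34, 24 and 36 counts in KO replicates 1 to 3 and 51, 63 and 51 counts in WT replicates 1 to 3. These were 20.8, 14.99 and 20.6 CPM in KO and 37.2, 42.9 and 34.9 CPM in WT. Every KO library was below every WT library, with KO replicate 2 the lowest. The mean was 18.8 ± 3.31 CPM in KO and 38.4 ± 4.13 CPM in WT (SD, n = 3 each). A two-sided exact permutation test of these levels gave p = 0.1, which is as low as 6 libraries can go. The edgeR fit put Pdp1 in KO over WT at -1.02 on the log2 scale (SE 0.22, 95% interval -1.49 to -0.56, edgeR adjusted p = 0.0100), an interval of 0.357 to 0.678 of the WT level.

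The call for Pdp1 was kept in 15 of 16 alternatives and was lost without WT replicate 2 (log2 fold change -0.96, edgeR adjusted p = 0.0523; range over all alternatives 0.000752 to 0.0523). Library totals gave -0.79 (edgeR adjusted p = 0.0353). A slow-fibre covariate left it at -1.02 (edgeR adjusted p = 0.0135). That score overlapped between genotypes (mean log2 CPM 2.84 to 6.59 in KO and 2.43 to 5.27 in WT). It therefore cannot account for fibre markers that differ by genotype. The summed fast-fibre level was also lower in KO without overlap on both scales (by library totals 134151 to 147117 CPM in KO and 171412 to 194555 CPM in WT), as was the mitochondrially encoded sum on the TMM scale alone, and their part in the result was not tested. In muscle RNA taken in bulk, fewer cells of a type and less RNA per cell cannot be told apart. The other phosphatase gene, Pdp2, was too low to be tested, at 4, 12 and 8 counts in KO and 9, 3 and 6 counts in WT, and the regulatory subunit gene Pdpr had 12.8 ± 4.63 CPM in KO and 14.9 ± 3.82 CPM in WT (SD, n = 3 each; edgeR adjusted p = 0.776).

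Ratios of counts within a library set the phosphatase against its opposing kinases and its substrate, free of the scaling between libraries. The 4 kinase genes together had 13.7, 15.8 and 14.95 counts for each count of Pdp1 and Pdp2 in KO replicates 1 to 3, and 7.40, 7.55 and 8.58 in WT replicates 1 to 3. The mean ratio was 14.8 ± 1.07 in KO and 7.84 ± 0.643 in WT (SD, n = 3 each), which is 1.89 times higher in KO, and the groups did not overlap. Pdp2, too low to be tested, gave 12 of the 36 phosphatase counts in KO replicate 2. Pdk2 had 16.7 ± 4.26 counts for each Pdp1 count in KO and 7.38 ± 1.07 in WT (SD, n = 3 each). That KO spread was wider, at 13.1 to 21.4. The E1 genes had 39.2, 57.9 and 41.4 counts for each Pdp1 count in KO, and 24.5, 21.9 and 28.6 in WT. The kinase counts for each E1 count were 0.391, 0.410 and 0.441 in KO and 0.355, 0.361 and 0.335 in WT. The means differed by a smaller 1.18 times, also with no overlap. None of the kinase and E1 genes that were tested passed. On the TMM scale the groups did not overlap for 25.8% of all genes tested, and the share for ratios was not computed. These ratios combine genes already described, so they carry no test of their own, and they are ratios of reads, not of protein.

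**Figure D4:**
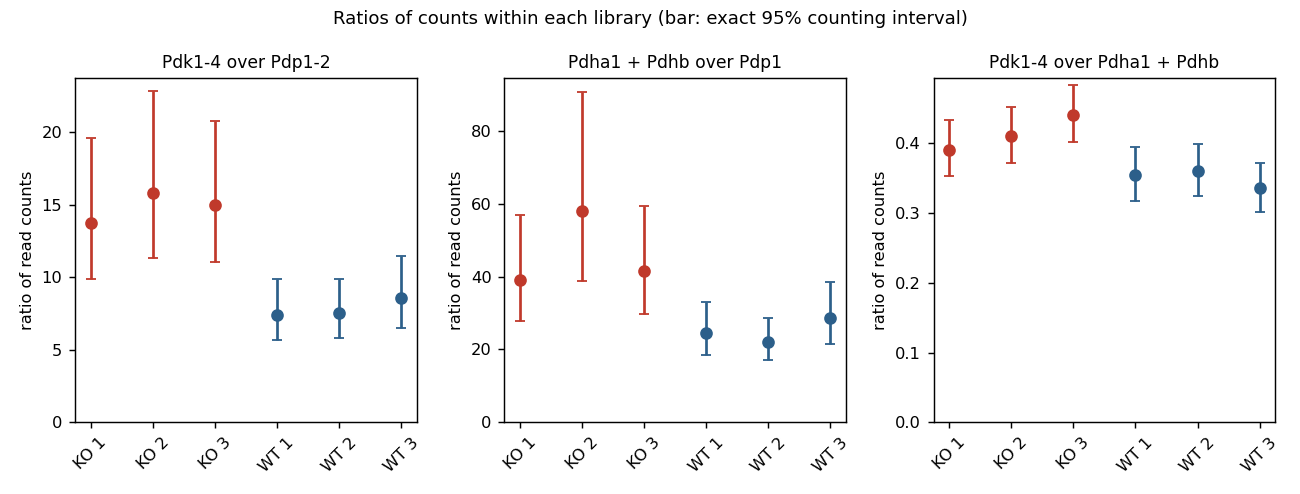
Ratios of read counts within each library, with exact 95% intervals for counting error: kinases over phosphatases, E1 over Pdp1, and kinases over E1. In the first panel KO libraries lie at 13.7 to 15.8 and WT libraries at 7.40 to 8.58.

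Levels were ordered between genes per length, as CPM per kilobase of merged exon, averaged over the 6 libraries. Mpc1 was highest at 543 CPM per kilobase and Pdha1 followed at 146. Pdk2 (92.5) and Pdhb (91.8) overlapped over the 6 libraries, as did Dld (48.2) and Mpc2 (47.3). Dlat (16.2) overlapped with Pdk4 (9.94), and Pdk4 with Pdp1 (6.34), while Pdk1 was lowest at 1.62. In each genotype taken alone, Pdp1 stood at 4.17 ± 0.733 CPM per kilobase in KO and 8.51 ± 0.917 in WT (SD, n = 3 each). Merged exons count every annotated transcript, which lowers genes with long rare forms, and 1 nanopore read can span a whole transcript, so the per-length order is a rough guide. Mpc2 and Dld, level per kilobase, were apart in CPM, at 246 to 391 CPM for Mpc2 and 160 to 197 CPM for Dld over the 6 libraries. The kinase shares and the count ratios above carry no length correction, so their values are set between libraries and not read as amounts of one transcript against another.

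Around the complex, 10 lists of related genes held 125 genes, of which 87 were tested, 3 rose, 5 fell and 79 did not pass. Of all genes tested, 2.98% passed as higher and 3.28% as lower. The 87 had a median log2 fold change of -0.05, against 0.017 for all. The lists were lipoate and iron-sulfur supply (8 tested), thiamine and NAD supply (4), the sister complexes with a lipoyl arm (8), use of acetyl-CoA (10), hypoxia-linked genes (6) and other genes of the complex (2), none with a gene that passed, and 4 lists with at least 1. Pdhx, which holds E3 on the E2 core, had 90.7 ± 10.01 CPM in KO and 85.2 ± 2.08 CPM in WT (SD, n = 3 each; edgeR adjusted p = 0.798).

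In the lists without a passing gene the smallest p-values belonged to the following genes. Bola3, which helps load the iron-sulfur cluster of lipoate synthase, had 186 ± 49.0 CPM in KO and 260 ± 17.8 CPM in WT (edgeR adjusted p = 0.134), and Isca2, of the same assembly path, 72.4 ± 3.75 CPM in KO and 61.0 ± 13.9 CPM in WT (0.489; SD, n = 3 each). Nampt, which makes the NAD precursor, had 34.6 ± 2.19 CPM in KO and 49.97 ± 4.60 CPM in WT (edgeR adjusted p = 0.0935), and the mitochondrial NAD carrier Slc25a51 42.6 ± 2.24 CPM in KO and 57.5 ± 0.900 CPM in WT (0.141; SD, n = 3 each). Bckdha and Bckdk, the E1 subunit and the kinase of the branched-chain complex, had log2 fold changes of 0.55 and 0.35 (edgeR adjusted p = 0.120 and 0.163). Acat1, which joins acetyl-CoA units, had a log2 fold change of 0.37 (edgeR adjusted p = 0.103), and Acaca, a cytosolic acetyl-CoA carboxylase, 0.72 (0.405). Epas1 and Vegfa, of the hypoxia list, had 0.28 and 0.34 (edgeR adjusted p = 0.594 and 0.748).

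Among 12 tested genes that make pyruvate or send it elsewhere, 2 fell and 0 rose. Pcx, pyruvate carboxylase, which turns pyruvate into oxaloacetate and is activated by acetyl-CoA, had 23.9, 27.5 and 29.8 CPM in KO and 48.9, 59.3 and 73.3 CPM in WT, with a wide gap between the groups. KO over WT was -1.16 in log2 (edgeR adjusted p = 0.00237, SE 0.20), and the call held in all 16 alternatives, DESeq2 and limma-voom included (adjusted p 1.23e-06 to 0.0145). Me1, the cytosolic malic enzyme, which makes pyruvate from malate, had 10.04 ± 3.08 CPM in KO and 21.6 ± 5.03 CPM in WT (SD, n = 3 each; log2 fold change -1.10, edgeR adjusted p = 0.0385). Its call was lost in 9 of 16 alternatives: with robust=FALSE, limma-voom, DESeq2 or library totals, or leaving out KO replicate 2 or 3 or WT replicate 1, 2 or 3 (adjusted p 0.0504 to 0.150).

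Of the 14 tricarboxylic acid cycle genes tested, Idh2 rose and Idh3a fell. Idh3a, a subunit of the NAD-linked isocitrate dehydrogenase, had 1016 ± 39.1 CPM in KO and 1283 ± 37.8 CPM in WT, and Idh2, the NADP-linked enzyme, 224 ± 78.5 CPM in KO and 91.0 ± 25.1 CPM in WT (SD, n = 3 each; edgeR adjusted p = 0.0416 and 0.0422). The call for Idh3a was lost in 10 of 16 alternatives, every left-out library among them (adjusted p 0.0501 to 0.486), and that for Idh2 without KO replicate 1 or WT replicate 1 or 3 (edgeR adjusted p 0.0741 to 0.177).

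Among 12 tested genes known to act on Pdk4 expression, through PPAR and retinoid X receptors, FoxO factors or insulin signalling, 1 rose and 2 fell. Rxrg, the retinoid X receptor that partners PPARs in muscle, had 33.0, 33.1 and 25.2 CPM in KO and 71.5, 62.0 and 71.2 CPM in WT (KO over WT -1.16 in log2, edgeR adjusted p = 0.000903, SE 0.18), and its call held in all 16 alternatives. Foxo1, a FoxO factor known to activate Pdk4, had 8.98 ± 1.73 CPM in KO and 20.8 ± 7.11 CPM in WT (SD, n = 3 each; edgeR adjusted p = 0.0337), with the call lost in 8 of 16 alternatives: limma-voom, DESeq2, library totals, and leaving out KO replicate 1, 2 or 3 or WT replicate 2 or 3 (adjusted p 0.0528 to 0.149). Akt2, the insulin-signalling kinase that holds FoxO factors out of the nucleus, had 99.6 ± 24.0 CPM in KO and 62.3 ± 4.66 CPM in WT (SD, n = 3 each; edgeR adjusted p = 0.0411). Its call was lost in 8 of 16: robust=FALSE, limma-voom, DESeq2, and leaving out KO replicate 2 or 3 or WT replicate 1, 2 or 3 (adjusted p 0.0558 to 0.175).

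Of 11 tested genes that PPARs or FoxO factors also control, 1 rose and 0 fell. Txnip, an arrestin-like protein that limits glucose uptake, had 113, 118 and 139 CPM in KO and 59.8, 38.2 and 58.9 CPM in WT, with every KO library above every WT library. KO over WT was 1.24 in log2 (edgeR adjusted p = 0.000612, SE 0.18), and the call held in all 16 alternatives. Pdk4, which shares such regulators, is described above and overlapped between genotypes.

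**Figure D5:**
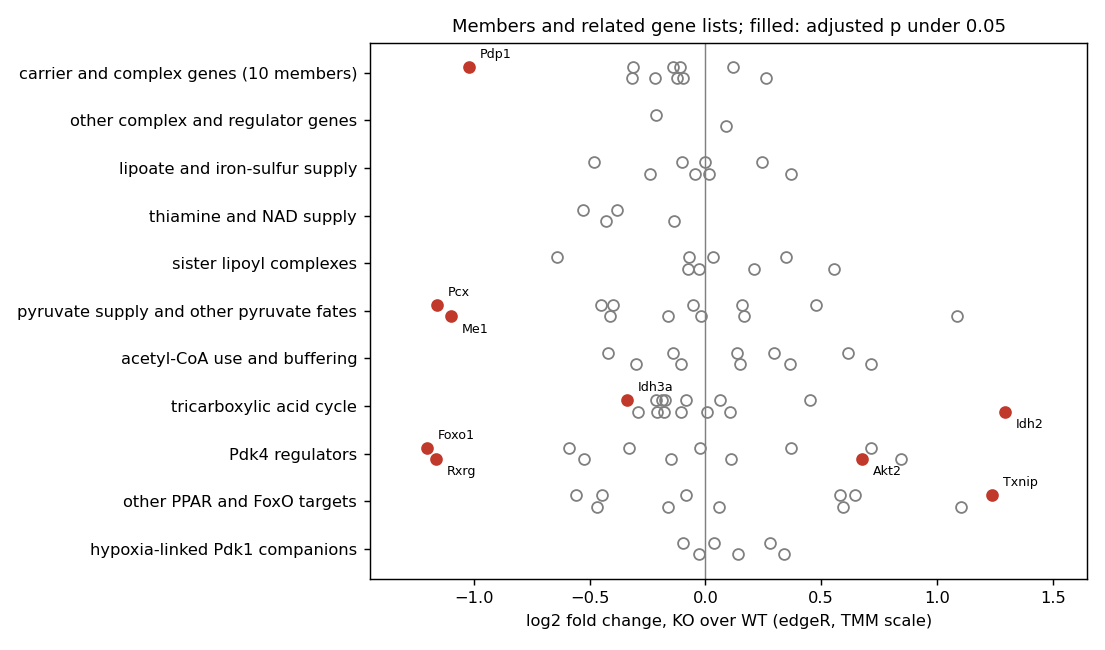
Log2 fold change of KO over WT (edgeR, TMM scale) for the 10 genes and for the tested genes of each related list. Each circle is a gene, filled and named where the adjusted p is under 0.05: Pdp1, Pcx, Me1, Idh3a, Idh2, Foxo1, Rxrg, Akt2 and Txnip.

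Genes with the most similar pattern were sought among tested genes with a mean of at least 20 CPM, by the root mean square difference in centred log2 CPM over the 6 libraries. For Pdp1 the nearest were Dst (0.11), Svil (0.13) and Cbfb (0.13). Svil, which encodes the actin- and membrane-binding protein supervillin, had 88.1, 65.6 and 72.2 CPM in KO and 146, 160 and 159 CPM in WT. For Pdk4 they were Zfand5 (0.34), Fto (0.36) and Ucp3 (0.36), all at a larger distance. Ucp3, a mitochondrial uncoupling protein, had 21.4, 7.50 and 44.7 CPM in KO and 24.1, 46.3 and 30.8 CPM in WT. It was lowest in KO replicate 2 (12 counts) and highest in WT replicate 2, as Pdk4, Zfand5 and Fto were. The measure picks genes for such likeness, so the shared order is no separate result. For Mpc2 they were Cox10 (0.023), mt-Nd4 (0.048) and Nudc (0.053), and for Pdhb Cisd1 (0.014), Rpl23a (0.020) and Rpl21 (0.024). The measure was computed on the same 6 libraries as the levels. It is not scaled by spread, so a gene that varies more lies farther from others. The SD within genotype was 0.73 for Pdk4 and 0.084 for Pdhb, so their distances are not compared as closeness of pattern.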

How the data were processed

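Nanopore cDNA from total RNA of mouse quadriceps was read in 3 KO and 3 WT libraries, numbered 1 to 3 within a genotype in accession order. Per the labels' protocols, cDNA was made by template switching and amplified by PCR. The submitters' processing notes name minimap2, DESeq2 1.6.3 and GRCm38. How reads were assigned to genes, with which annotation and whether by strand, is not given here.

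Deposited gene counts are headed as counts and are whole numbers, and they were taken as reads that are not normalized. The deposited CPM are the authors' counts divided by 1 total per library, and served only to check the counts. GENCODE M21 (GRCm38) supplied gene positions and exons.

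The test was run on counts in edgeR 4.0.16 under R 4.3.3 (filterByExpr, minimum count 10 and minimum total 15, TMM, quasi-likelihood test, robust), with Benjamini-Hochberg adjustment over 6680 genes and a threshold of 0.05. The SE is the log2 fold change divided by the root of F. Log2 CPM for spread and likeness used a prior count of 2. Alternatives were other scalings, no filter, 5 CPM in 3 libraries, DESeq2 1.42.0, limma-voom 3.58.1, robust=FALSE, the slow-fibre score as a covariate, and each library left out. Intervals on counts cover counting error only, since no use of molecular identifiers is stated. The steps were tested on simulated counts for KO against WT (6680 genes): 14.9% of 1.5-fold and 68.8% of 2-fold changes were called. A level of 3 counts equals 1.72 to 2.19 CPM.

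The members and lists were chosen with earlier results of these data known. Named genes were the members, Prr14, and from each list the genes that passed or, where none did, the 2 with the smallest p, with the 3 nearest genes in pattern for the members described; Pdk3, Pdp2 and Pdha2 were named for completeness of the families.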

Additional observations from a re-analysis of the deposited data

How the results depend on the processing

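No paired analysis was possible because the numbers in the library titles share only 1 value between the genotypes. The Pdp1 call was lost without WT replicate 2 (log2 fold change -0.96), where 0 of the 10 genes passed by edgeR against 1 with all libraries, and the cause was not tested. Left-out libraries gave Pdp1 -1.10 to -0.89. With library totals the log2 fold changes of Mpc1 (0.13), Pdha1 (0.020), Pdhb (0.14), Dlat (0.11), Dld (0.095) and Pdpr (0.013) turned positive, on a scale whose median over all genes was 0.25. With single libraries left out, Dlat ran from -0.33 to 0.057, Pdk1 from -0.058 to 0.43, Pdk4 from -0.66 to 0.10, Pdpr from -0.50 to 0.032, Pdhx from -0.0036 to 0.14 and Vegfa from -0.013 to 0.85. The difference in Pdk4 share of kinase counts, KO minus WT, was -2.66 percentage points and ran from -5.06 to 0.29; the log2 kinase to phosphatase ratio stayed at 0.87 to 0.99. All genes called higher numbered 199, against 653 with library totals, 344 with no filter and 83 to 179 with a library left out; those called lower numbered 219, against 362 with no filter, 148 with library totals and 154 to 187 with a library left out. Bola3 passed as lower with no filter, and Bckdha, Bckdk and Acat1 passed as higher with library totals. Pdk1, Pdp1 and Pdk4 rest on 14 to 87 counts a library. In simulated counts, 1.5-fold changes were called in 14.9% and 2-fold changes in 68.8% of cases. Those changes were planted in genes drawn from all 6680, and the rate for genes at such low counts was not computed.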
